A study of Mus musculus with 4 samples.

Results

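A set of 9 genes of retinoid handling was examined in mouse embryonic stem (ES) cells, wildtype and null for SOCS3, a feedback inhibitor of cytokine receptors. They are carriers, enzymes and receptors of the vitamin A pathway, and the set was drawn up with earlier results of these data known. Every probe set with a single gene symbol among Crabp1, Crabp2, Stra6, Rdh10, Aldh1a2, Cyp26a1, Rara, Rarb and Rarg was taken. This gave 11 probe sets for 9 genes, of 45037 probe sets and 18193 genes on the array. The study compared 2 arrays labelled wildtype with 2 labelled SOCS3 null, all of total RNA from ES cells. The labels give no clone, passage, culture medium or construction of the null allele, nor do they say whether replicate arrays were hybridised with RNA of separate cultures. The p-values therefore measure the spread between these arrays only, which may be technical. Both groups are bulk samples, in which a smaller share of cells that express a gene and less of its RNA per cell cannot be told apart.

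Retinol reaches the cell on a serum carrier and can enter through the membrane receptor STRA6. Retinol dehydrogenases such as RDH10 oxidise it to retinaldehyde, retinaldehyde dehydrogenases such as ALDH1A2 make retinoic acid, and CYP26 enzymes break retinoic acid down. CRABP1 and CRABP2 carry retinoic acid inside the cell, and the receptors RARA, RARB and RARG, paired with RXR proteins, bind DNA as retinoic acid dependent transcription factors. Added retinoic acid is a widely used inducer of differentiation of ES and embryonal carcinoma cells, towards neural or endodermal fates depending on the culture. Cyp26a1 and Rarb are textbook direct targets of the receptors, through paired receptor motifs near their starts.

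Promoter windows of the members were searched for such motifs, and every match found is shown. Promoter windows of 300 bases, from 250 before to 50 after a transcript start, were taken from RefSeq (GRCm38.p6). They were available for 7 of the 9 genes, in 14 windows; Crabp2 and Rdh10 had no entry. Each window was searched on both strands for direct repeats of a 6-base receptor motif (AGGTCA or AGTTCA, and GGGTCA or GGTTCA), 1, 2 or 5 bases apart, called DR1, DR2 and DR5. A DR5 was found in the windows of Cyp26a1 and Rarb and in no other member window, and in 32 of all 32851 windows, or 0.0974%. DR1 and DR2, held by 0.222% and 0.268% of all windows, were in no member window. Both DR5 sites are printed with 6 bases on each side, 5′ to 3′ on the strand that reads as the repeat, with the 6-base motifs in capitals.
Cyp26a1 DR5, chr19:37697770-37697798, minus strand: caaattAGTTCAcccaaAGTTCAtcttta
Rarb DR5, chr14:16575507-16575535, minus strand: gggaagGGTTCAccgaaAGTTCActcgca
The Cyp26a1 repeat lies 16 to 32 bases before the transcript start at 37697808, on the strand opposite to the gene, and inside the RefSeq extent of the gene, which begins at 37697738. The Rarb repeat lies 37 to 53 bases before the transcript start at 16575476, on the strand of the gene, inside the longer extent of Rarb (chr14:16430839-17082331). A match describes the letters of the window and shows no binding in these cells.

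Across the members the pattern was mixed by role. The retinoic acid breaking enzyme Cyp26a1 and the retinol dehydrogenase Rdh10 rose in SOCS3-null cells, while the carrier Crabp2 and the receptor genes Rarg and Rara fell when 1 probe set stood for each gene. Crabp1 and Aldh1a2 did not pass the test, Stra6 was higher on both SOCS3-null arrays but missed the threshold, and Rarb was near the bottom of the scale on all 4 arrays. Of the 11 probe sets 10 passed the filter on dim values, and 4 of those 10 were called at a limma adjusted p under 0.05, 2 higher and 2 lower, where 15.9% of all 27022 probe sets tested were called, 8.55% higher and 7.30% lower. By gene, 5 of the 8 tested were called, 2 higher and 3 lower, beside 22.7% of all 12732 genes, 13.1% higher and 9.55% lower. The count belongs to members that passed the filter, and Cyp26a1, with a mean wildtype value of 4.53 on the log2 scale against a filter floor of 4.72, passed only through the SOCS3-null arrays. The arrays of the groups did not overlap for 9 of the 11 probe sets, but the same held for 58.0% of all probe sets, so lack of overlap is common on these arrays. Without the filter on dim values, 1 member probe set, that of Cyp26a1, was called (limma adjusted p = 0.0379).

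**Figure D1:**
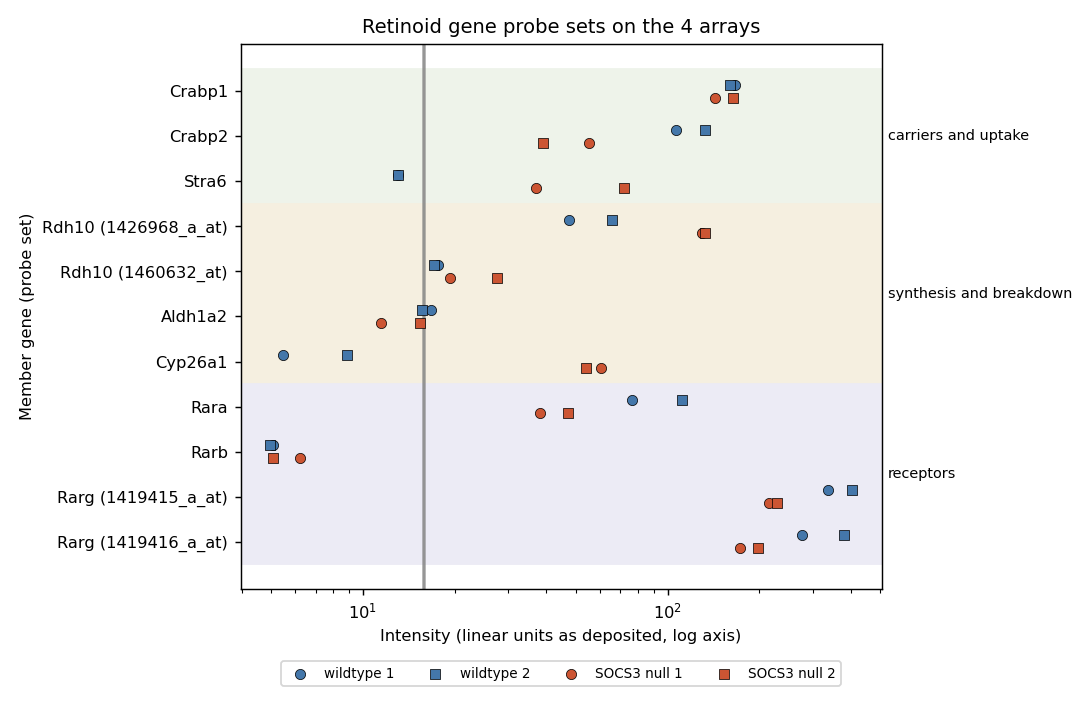
Intensity (log axis, linear units as deposited) of each of the 11 member probe sets on the 4 arrays; blue is wildtype, red is SOCS3 null, circles are replicate 1, squares are replicate 2, and the grey line marks the array medians of 15.8 to 16. Cyp26a1 and Stra6 cross from below to above that line, Crabp2, Rara and both Rarg probe sets lie lower in SOCS3-null cells, and Rarb stays far below the line on all arrays.

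Facts of the whole series that touch these values were few. Array medians were 15.8 to 16 intensity units and 75th percentiles 115 to 120. Socs3, the targeted gene, lay between 391.5 and 3024 on the wildtype arrays over its 3 probe sets and between 9.71 and 19.3 on the SOCS3-null arrays, so each array had the Socs3 level of its label. The cells carried the markers of their labelled type: all 12 pluripotency markers were above the array median in both groups, and Pou5f1 ranged from 10520 to 11680. The list still moved with genotype: Sox2 (-1.01), Fgf4 (-1.29), Nr0b1 (-1.36), Klf2 (-2.14) and Dppa3 (-3.10) fell, Tbx3 (1.78) and Tfcp2l1 (1.23) rose, and its summed intensity was 38850 and 40840 in wildtype against 29380 and 27960. Markers of extraembryonic endoderm moved with genotype: 16 of 21 tested rose and none fell. Among those that rose, Sox17, Gata4 and Foxa2 had mean wildtype values of 4.34, 4.71 and 4.51 on the log2 scale. They passed the filter only through the SOCS3-null arrays, so they could hardly have been called lower. Part of the count of rises was therefore set by the filter. The summed intensity of the 22 markers on the array was 3904 and 4471 in wildtype against 62850 and 65160 in SOCS3-null cells. Afp and Hnf4a were near or below the array medians on all arrays. Of 6 neuroectoderm markers tested 3 fell, among them Map2, which passed the filter only through the wildtype arrays (SOCS3-null mean 4.65 on the log2 scale). The sum of the 11 on the array was 804 and 822 against 287 and 271, with Sox1, Zic1 and Dcx below the medians. None of the 13 fibroblast and feeder markers tested was called. The sum of the 14 on the array followed no genotype (3800 and 6458 in wildtype, 6587 and 4298 in SOCS3-null cells). Of 5 blood and endothelial markers tested 3 rose, Cd68 (1.13), Cdh5 (1.00) and Tek (0.56). The sum of the 7 on the array was 374 and 364 against 617 and 509. Cdh5, with a mean wildtype value of 4.45 on the log2 scale, passed the filter only through the SOCS3-null arrays. Of the 5 trophoblast markers tested only Tfap2c was called, a fall (-1.11) from 955.4 and 1199 to 468.2 and 506. The sums of the 7 on the array, 1064 and 1292 against 604 and 854, were mostly Tfap2c. Without a call, Krt7 (1.64) and Hand1 (0.90) were higher on both SOCS3-null arrays, and Ascl2 (-0.52) and Tpbpa (-0.08) were lower. Of the 3 mesoderm markers tested Eomes rose (0.94), and the sums of the 9 on the array were 109 and 98.2 against 166 and 199. Beside these counts, 13.1% of all 12732 genes tested were called higher and 9.55% lower. Lists with 3 to 6 genes tested are too short to compare with these shares. The part of the marker changes in the retinoid results was not tested.

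Of the carriers, Crabp2 (chr3:87948693-87953372) changed most clearly. Its intensity was 107 and 132.6 in wildtype, against 55.1 and 39.1 in SOCS3-null cells. Both SOCS3-null values lay below both wildtype values, the nearest pair being 1.94-fold apart. The means were 120 ± 18.1 and 47.1 ± 11.4 (SD, n = 2), 2.54-fold lower in SOCS3-null cells. On the log2(intensity + 16) scale, used for all changes here and understating those of dim genes, the change was -1.11 (SE 0.18, limma adjusted p = 0.0379), the 392nd lowest of the 12732 gene changes.

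Crabp1 (chr9:54764748-54773110), the sister carrier, was at 166.8 and 160.1 in wildtype, against 143.4 and 164 in SOCS3-null cells. The groups overlapped. Its change was -0.08 with a 95% interval of -0.36 to 0.19 (limma adjusted p = 0.601), so a change as large as that of Crabp2 lies outside the interval. The difference of the log2 values, Crabp2 minus Crabp1 within an array, was -0.57 and -0.24 in wildtype, against -1.16 and -1.71 in SOCS3-null cells, a shift of -1.03. With 2 arrays against 2 an exact permutation test cannot go below p = 0.333, which is the value found (two-sided).

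Stra6 (chr9:58063793-58154004), the retinol entry receptor, was at 13.0 and 13.1 in wildtype, under the array medians, and at 36.9 and 72.2 in SOCS3-null cells. Its groups did not overlap, at 2.83-fold apart, and the SOCS3-null arrays were themselves far apart while the wildtype arrays were close. The means were 13.0 ± 0.0504 and 54.6 ± 24.9 (SD, n = 2), and the change was 1.23 (95% interval 0.44 to 2.03), with a limma adjusted p of 0.0665 over probe sets and 0.0503 over genes. The change was 0.87 without SOCS3 null replicate 2 and 1.603 without SOCS3 null replicate 1. A pseudocount of 1 in place of 16 gave 1.91 and passed the threshold (adjusted p = 0.0427; 0.0427 to 0.330 over the alternatives), and a pseudocount of 64 gave 0.61.

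Of the 3 member enzymes the one that removes retinoic acid changed most. Cyp26a1 (chr19:37697738-37701536) was at 5.46 and 8.85 in wildtype, in the lowest 34.7% of probe sets on both arrays, and at 60.5 and 54.1 in SOCS3-null cells, above 66.4% of probe sets on both. Both wildtype values lay under the filter floor of 10.4, so the size of the difference is read against a level too dim to measure, and no fold is given. The means were 7.16 ± 2.40 and 57.3 ± 4.54 (SD, n = 2), and the change was 1.67 (SE 0.11, limma adjusted p = 0.0111). A filter at the 60th percentile left it untested. Its size moved with the pseudocount, from 0.77 at 64 to 2.87 at 1.

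Rdh10 (chr1:16105882-16132550), which makes retinaldehyde from retinol, has a brighter and a dimmer probe set. On the brighter it was at 47.6 and 65.7 in wildtype, against 130.1 and 132.5 in SOCS3-null cells, with means of 56.6 ± 12.8 and 131 ± 1.71 (SD, n = 2). Both SOCS3-null values were at least 1.98 times the higher wildtype value. The change was 1.03 (SE 0.15, limma adjusted p = 0.0306). On the dimmer, near the array medians, the values were 17.6 and 17.1 against 19.4 and 27.5. That probe set was not called: its change was 0.23 (95% interval -0.14 to 0.60, limma adjusted p = 0.311), and the groups were 1.10-fold apart at their nearest.

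Aldh1a2 (chr9:71215789-71296243), which makes retinoic acid in many embryonic tissues, was dim on all arrays. Its intensity was 16.7 and 15.6 in wildtype, against 11.5 and 15.4 in SOCS3-null cells. The nearest pair was 1.011-fold apart, and the change of -0.13 did not pass (95% interval -0.42 to 0.16, limma adjusted p = 0.444). Set against the breakdown enzyme within each array, the log2 value of Cyp26a1 minus that of Aldh1a2 was -0.61 and -0.35 in wildtype, against 1.48 and 1.16 in SOCS3-null cells, a shift of 1.80 (exact permutation p = 0.333, two-sided, the smallest possible). Of that shift 1.67 was the change of Cyp26a1 and 0.13 that of Aldh1a2, taken with its sign turned. The wildtype values of Cyp26a1 lay under the filter floor, so the size of the shift depends on the pseudocount. The pair was chosen after the values were seen, and no balance of making and breakdown is read from it.

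**Figure D2:**
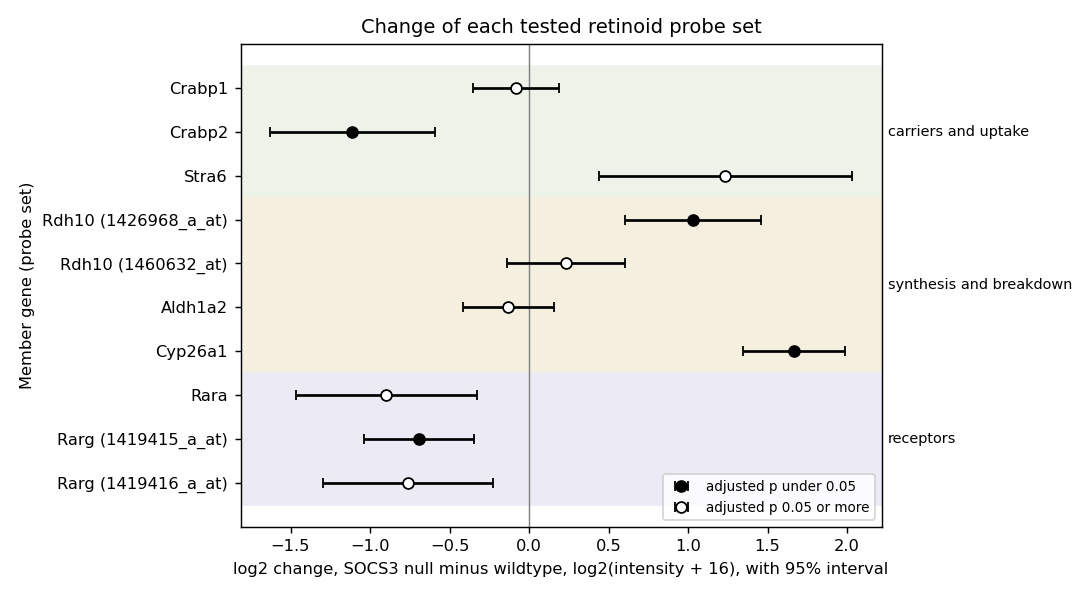
log2 change (SOCS3 null minus wildtype, on log2(intensity + 16)) of the 10 tested member probe sets, with its 95% interval from limma; filled points have an adjusted p under 0.05 over all probe sets. The 4 filled points are Crabp2 and a Rarg probe set to the left of 0, and an Rdh10 probe set and Cyp26a1 to the right; the intervals of Crabp1, Aldh1a2 and the dimmer Rdh10 probe set span 0.

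The receptor genes were lower or not measurable. Rarg (chr15:102234938-102257522), a receptor gene that undifferentiated ES cells express, has a brighter and a dimmer probe set. On the brighter it was at 335.5 and 404.5 in wildtype, against 214.9 and 229.4 in SOCS3-null cells, with means of 370 ± 48.8 and 222 ± 10.3 (SD, n = 2). On the dimmer it was at 276.4 and 380 against 172.6 and 197.7. Wildtype lay above SOCS3 null on every array of both probe sets. The changes were -0.69 (SE 0.12) and -0.76 (SE 0.19), of which that of the brighter was called and the other not, with limma adjusted p of 0.0425 and 0.0775. Both probe sets draw on the same RNA samples and are not independent evidence.

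Rara (chr11:98927800-98974942) was at 76.7 and 111.4 in wildtype, against 38.1 and 47.05 in SOCS3-null cells. The groups did not overlap, at 1.63-fold apart. Its change of -0.90 (SE 0.20) was called over genes, at a limma adjusted p of 0.0495, and not over probe sets, at 0.0646. The difference of log2 values, Rarg minus Rara, was 1.92 and 1.72 in wildtype, against 2.10 and 1.96 in SOCS3-null cells, so it shifted by 0.21 (exact permutation p = 0.333, two-sided, the smallest possible).

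Rarb, the receptor gene that retinoic acid itself induces in many cells, was dim on all arrays. Its intensity was 5.07 and 4.94 in wildtype, against 6.22 and 5.06 in SOCS3-null cells, in the lowest 19.3% of probe sets on all arrays, and it lay below the filter and was not tested. The groups overlapped, and the difference was 0.04 on the log2 scale (95% interval -0.08 to 0.16 in the fit without the filter). Of the pair of members with a DR5 in the window, Cyp26a1 rose and Rarb showed no difference above the dim end of the scale, where a probe set cannot tell a low level from an absent one.

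**Figure D3:**
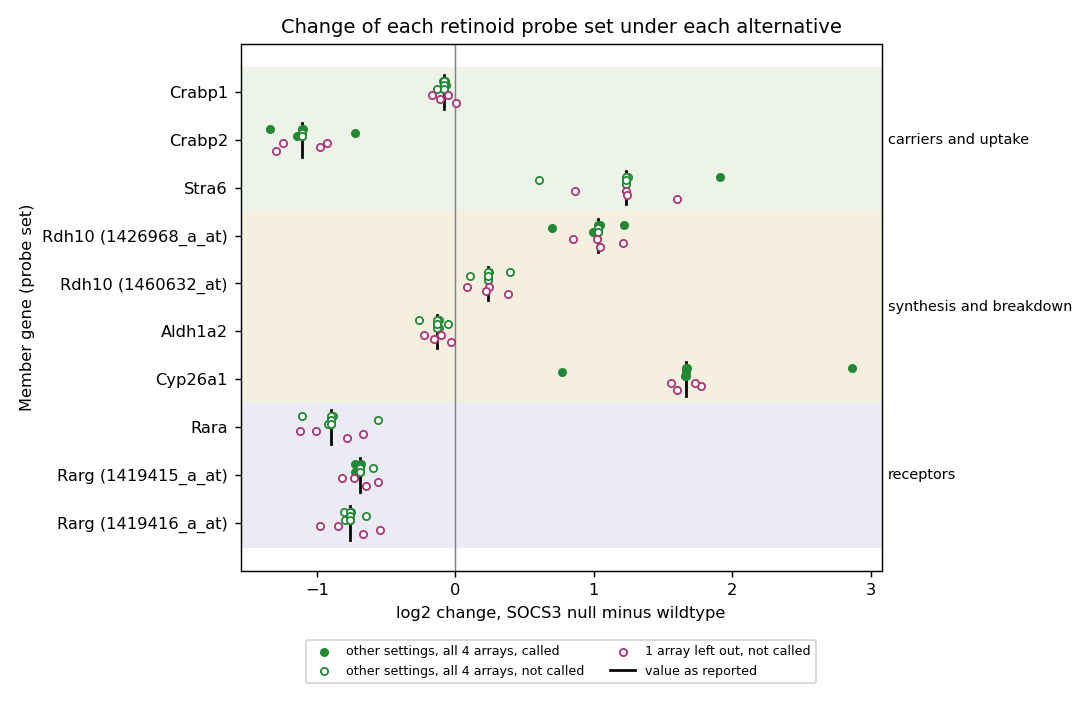
log2 change of each tested member probe set under other settings: green points use all 4 arrays with another setting, purple points leave out 1 array, filled points have an adjusted p under 0.05, and the black bar is the value as reported. All points of Crabp2, Stra6, Cyp26a1, Rara and both probe sets of Rdh10 and of Rarg lie on the side of 0 of their bar, and only Crabp1 has a point across 0, at 0.00.

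The wider retinoid pathway was described with 4 further lists, 92 genes in all, of which 82 were on the array and 56 passed the filter. Of the 56, 7 rose and 2 fell, or 16.1% called, which is below the 22.7% of all genes, and the median change was 0.10 beside 0.00 for all genes.

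Of 6 other carriers and uptake genes tested, 2 rose and none fell, with a median change of 0.03. Lrp2, which encodes the endocytic receptor megalin, a route of uptake for carrier-bound retinol, went from 183.1 and 198.6 to 816.1 and 706.1. Its change was 1.91 (SE 0.11, limma adjusted p = 0.00595), and it is also among the endoderm markers above. Fabp5, a fatty acid carrier that also binds retinoic acid, rose by 0.43 (limma adjusted p = 0.0388), from 1439 and 1552 to 2033 and 2018. The call was lost on its other probe set (limma adjusted p = 0.186) and with its probe sets averaged (0.0689). It was also lost with a pseudocount of 1 (limma adjusted p = 0.0582) and with the replicate block (0.0925). Rbp4 and Ttr, the serum carriers of retinol, stayed near or below the array medians, at 12.2 to 16.6 and 9.26 to 12.3, with changes of 0.05 and -0.02.

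Of 11 other retinoid enzymes tested, 1 rose and none fell, with a median of 0.39, and 16 lay below the filter, among them Aldh1a1 at 5.06 to 6.20 and Lrat at 7.36 to 7.66. Rdh13, a retinol dehydrogenase family member, rose by 0.71 over genes (limma adjusted p = 0.0462), from 62.0 and 50.5 to 90.8 and 113.6. It missed over probe sets (limma adjusted p = 0.0591). Over genes it missed without the filter (0.113), with a pseudocount of 64 (0.062), a trended prior variance (0.0501) and the replicate block (0.088). Cyp26b1, the sister of Cyp26a1, was at 15.2 and 15.05 in wildtype, against 39.7 and 101.8 in SOCS3-null cells. Its change of 1.38 (SE 0.39) did not pass, with a limma adjusted p of 0.0848. It was 0.84 without SOCS3 null replicate 2 and 1.92 without SOCS3 null replicate 1, and a filter at the 60th percentile called it (adjusted p = 0.0276; 0.0276 to 0.367 over the alternatives). Dhrs3, which turns retinaldehyde back to retinol, overlapped between groups, at 20.2 and 23.9 against 31.4 and 19.0, with a change of 0.10.

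Of 20 receptor partners and cofactors, 1 rose and 1 fell, with a median of -0.03. The coactivator Ncoa6 went from 154.9 and 150.8 to 295.7 and 320.4, a change of 0.94 (SE 0.09, limma adjusted p = 0.0098). The mediator subunit Med1 changed by -0.80 on its brightest probe set (limma adjusted p = 0.0159), from 578.2 and 525 to 296.7 and 322.6. As the mean of its 7 probe sets the change of Med1 was -0.30 and did not pass (adjusted p = 0.0532; 0.00755 to 0.166 over the alternatives). The receptor partners Rxra and Rxrb differed by 0.34 and -0.26, both short of the threshold (limma adjusted p = 0.078 and 0.243).

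Of 22 genes known as retinoic acid targets, 3 rose and 1 fell, or 18.2% called, and the median was 0.23. Gata6, a transcription factor that also stands among the endoderm markers, rose by 5.25 from 19.9 and 9.26 to 1356 and 943.3. Tgm2, transglutaminase 2, rose by 3.68 from 58.8 and 46.2 to 780.2 and 945, with limma adjusted p of 0.00459. The homeobox gene Meis1 rose by 1.07 (limma adjusted p = 0.028), from 19.6 and 24.9 to 75.8 and 53.8. Its other probe sets lay below the filter. The rise was not called without the filter (limma adjusted p = 0.0832) or with the replicate block (0.0539). Stra8, a meiosis gene named for its response to retinoic acid, changed the other way, by -2.07 over genes (SE 0.42, limma adjusted p = 0.0414), from 204.1 and 114.7 to 14.1 and 38.5. It missed over probe sets (limma adjusted p = 0.0565), and over genes without the filter (0.123), with a pseudocount of 64 (0.0587) and with the replicate block (0.0722). The Hox genes of the list gave no call: Hoxa3, Hoxa5, Hoxb3 and Hoxb4 were tested and did not pass, with changes of -0.13 to 0.26, and Hoxa2, Hoxa4, Hoxb1, Hoxb2 and Hoxb5 lay at 2.94 to 10.4, below the filter.

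**Figure D4:**
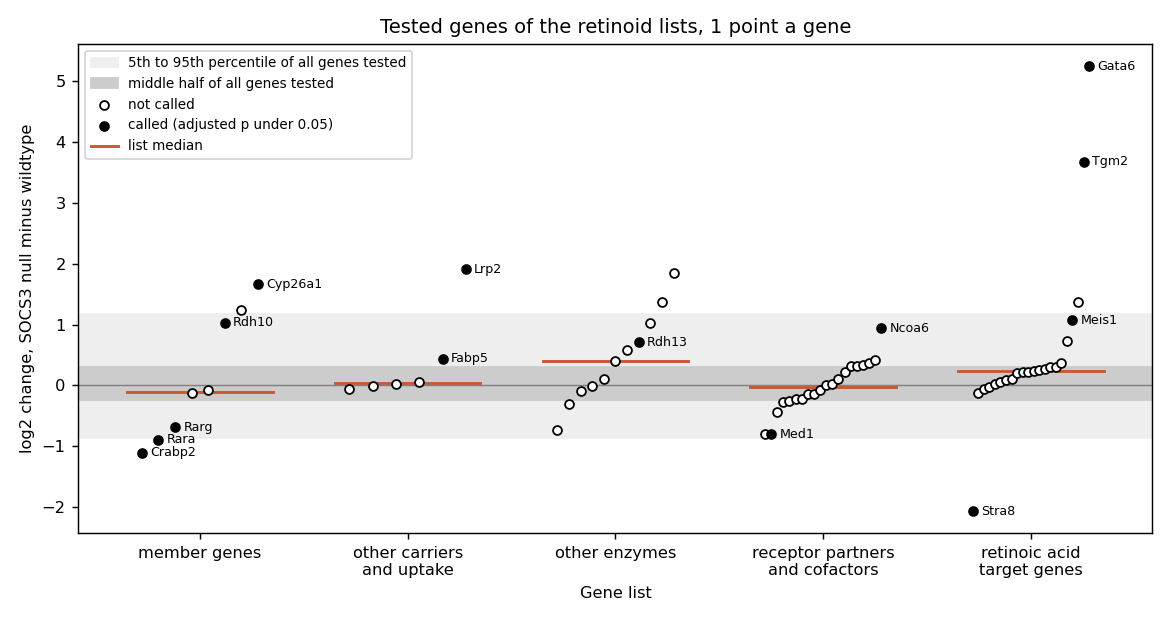
log2 change (SOCS3 null minus wildtype) of each tested gene in the member list and the 4 wider retinoid lists, 1 point a gene; filled points have a limma adjusted p under 0.05 over all genes, red bars are list medians, and the grey bands span the quartiles (-0.24 to 0.30) and the 5th to 95th percentile (-0.87 to 1.18) of all genes tested. Most genes of the wider lists lie within the bands, and Gata6, Tgm2, Lrp2 and Stra8 are the called ones farthest from 0.

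Genes whose values over the 4 arrays ran most like those of a member were taken by the smallest Euclidean distance between log2 values, each gene centred on its mean. For Cyp26a1, the called member with the largest rise, none are named, since its wildtype values lay under the filter floor and its log2 pattern moved with the pseudocount. For Crabp2, the called member with the largest fall, they were Rab34, Fam169a and B230307C23Rik, at distances of 0.07, 0.09 and 0.12, with changes of -1.16, -1.12 and -1.05. The measure runs over 4 arrays and is a description only.

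With any 1 array left out limma called no probe set at all, of the members or of the 27022, while 5699 to 8535 probe sets had an unadjusted p under 0.05. The members' calls could therefore not be checked by leaving out arrays, and only their sizes could. These stayed between -1.30 and -0.93 for Crabp2, 1.56 and 1.77 for Cyp26a1, 0.85 and 1.21 for the brighter Rdh10 probe set, and -0.82 and -0.56 for the brighter Rarg probe set.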

How the data were processed

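RNA of 4 samples was measured on expression arrays with 45101 probe sets. The authors deposited one linear intensity for each probe set and array; how the authors summarised and normalized them is not given in the sources used here. All were above 0 with near-equal medians, so no normalization was added. Groups and replicate numbers came from the labels. Left out were 64 control probe sets. The 27022 probe sets whose mean log2(intensity + 16) reached the 40th percentile entered the fit with limma 3.58.1 (R 4.3.3; lmFit, eBayes, genotype only). Calls were at a Benjamini-Hochberg adjusted p under 0.05 across all probe sets, two-sided. For genes, the probe set with the highest mean stood for its gene (12732 genes). The number of arrays limits the precision; there were 2 residual degrees of freedom.

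Symbols came from a platform annotation; 34945 probe sets had 1 symbol, 932 several and 9160 none. Gene extents and promoter windows came from RefSeq tables of GRCm38.p6; which exons a probe set covers was not analysed here. The members and lists were chosen with earlier results of these data known. Named genes were all members, up to 4 called genes with the largest change of each wider list, and Rxra, Rxrb, Rbp4, Cyp26b1, Dhrs3, Fabp5 and Aldh1a1, with 1 further gene of that rule not reported here; other genes named were chosen after their values were seen. The log2 differences between 2 members were also chosen then. The procedure was tested on simulated data. Other settings tried were a block for replicate number, quantile normalization or median centring of the arrays, pseudocounts of 1 and 64, a dim-value filter at the 60th percentile or none, a trended and a robust prior variance in eBayes, averaging the probe sets of each gene, and dropping 1 array at a time. Figures were drawn with matplotlib 3.10.9.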

Additional observations from a re-analysis of the deposited data

How the results depend on the processing

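Of the member probe set values under other settings 99 kept direction and side of the threshold, 23 lost the call, 3 gained one and 1 turned: Crabp1 without SOCS3 null replicate 1 (0.0047; -0.17 to 0.0047 with each array left out). Among the named genes Rbp4 turned without wildtype replicate 1 (-0.022) and without SOCS3 null replicate 2 (-0.044; range -0.044 to 0.14), and Dhrs3 without SOCS3 null replicate 1 (-0.12; range -0.12 to 0.32). Without the filter 1733 probe sets and 1631 genes were called, with 1 member probe set and 1 member gene. That setting tests more, dim features. With any 1 array left out every count of calls was 0: for all probe sets, all genes, members and wider lists. Same-numbered arrays are not known to be paired. With the replicate block 1993 probe sets and 1914 genes were called, with 1 member probe set (Cyp26a1, adjusted p = 0.036), 4 member genes and 5 genes of the wider lists. The array differences of the groups correlated at -0.118 over probe sets; with the numbers crossed, chosen after seeing the data, 3845 probe sets, 3 member probe sets and 5 member genes were called. Dim signal limits Rarb, Aldh1a2 and, in wildtype, Cyp26a1 and Stra6.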

Other observations

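On the SOCS3-null arrays a few retinoid genes differed widely between replicates, and not in 1 direction. Stra6 was at 36.9 on replicate 1 and 72.2 on replicate 2, and Cyp26b1 at 39.7 and 101.8. Aldh1a3, a maker of retinoic acid named here after its values were seen, ran the other way, at 198 and 65.97, against 22.7 and 18.6 in wildtype. Each of these 3 genes was higher on both SOCS3-null arrays than on both wildtype arrays. Lack of overlap, in either direction, held for 58.0% of all probe sets, so it does not set these genes apart. None passed the test (limma adjusted p over genes of 0.0503, 0.0848 and 0.076). How often other dim genes differ as much between replicates was not tested. Cyp26a1 and Rdh10 lay closer together, at 60.5 and 54.1 and at 130.1 and 132.5.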
